A study of Mus musculus with 6 samples.

Results

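The 9 glycolytic enzyme genes described here are Gpi1, Aldoa, Tpi1, Gapdh, Pgam1, Eno1, Eno2, Pkm and Ldhb. They were chosen by name, with earlier results of these data known. They are 9 of the 20234 genes in a table of unique molecular identifiers (UMIs, tags that count each captured transcript once) from single cells of the hippocampal CA1 field. All 9 were detected, with 16530 of the 6910600 UMIs of the 973 retained cells. Their UMIs ranged from 206 for Pgam1 to 4036 for Aldoa.

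Glycolysis turns glucose into pyruvate in the cytosol. Glucose-6-phosphate isomerase (Gpi1), aldolase (Aldoa) and triosephosphate isomerase (Tpi1) act in its upper part, and glyceraldehyde-3-phosphate dehydrogenase (Gapdh), phosphoglycerate mutase (Pgam1), enolase (Eno1 and Eno2) and pyruvate kinase (Pkm) in its lower part, which yields ATP. Lactate dehydrogenase converts pyruvate and lactate into each other, and Ldhb encodes its heart-type subunit. Several of these steps have a second gene with a known cell type bias in brain: Eno2 is the neuron-specific enolase, Aldoc is the aldolase of astrocytes, and Ldha encodes the muscle-type lactate dehydrogenase subunit.

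Cells were isolated by Drop-seq, a droplet method that counts transcripts at their 3' end, from CA1 of 6 male C57Bl6 mice at postnatal day 28. Mice 1, 3 and 5 had received 1 placebo injection and mice 2, 4 and 6 had received 1 injection of 5000 IU/kg recombinant human erythropoietin (EPO), in each case 6 hours before sacrifice. The labels name no transgene or deletion, and each library came from 1 mouse. Placebo 1, placebo 3 and EPO 2 carry the code D1 in the labels and placebo 5, EPO 4 and EPO 6 the code D2. The labels do not say what that code stands for.

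Each library held 1000 barcodes, of which 43 (placebo 3) to 271 (EPO 4) had more than 1000 and at most 8000 detected genes and at most 40% of their UMIs from the 27 genes with the prefix mt-. The retained cells of a mouse held 204479 to 1948490 UMIs, and their median mt- share ran from 3.58% in EPO 6 to 18.3% in EPO 2. Of the retained cells, 26 barcodes were shared between placebo 1 and EPO 4, and none between other libraries. In these 26 pairs the cell in placebo 1 held 3.16 to 5.87 times the UMIs of its partner, and both fell in the same cell class in 26 of 26. They made up 45.3% of the UMIs of placebo 1 and 6.6% of those of EPO 4. Gapdh levels and the members' calls that changed when these barcodes were left out are given both ways.

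Cells were named from marker genes after clustering without the glycolysis genes. Of the 973 cells, 617 were glutamatergic-like, 130 oligodendrocyte-like, 77 astrocyte-like, 46 GABAergic-like, 39 endothelial-like, 36 oligodendrocyte precursor (OPC)-like, 18 microglia-like and 10 mural-like. The glutamatergic-like cells formed 4 clusters. Clusters 0 (238 cells) and 1 (177 cells) carried the CA1 pyramidal markers. Clusters 3 (114 cells) and 4 (88 cells) were led by Tshz2 and scored highest for the markers of Rxfp1 and Tshz2 cells, with 4 detected in each. Slc17a6 was also among the leading genes of cluster 4. Both are referred to by number. Levels are given as CPM, the UMIs of a gene scaled to 1000000 UMIs of the cells summed in 1 mouse. A class was compared with the glutamatergic-like cells within mice that had at least 5 cells of both, by edgeR's quasi-likelihood test with mouse as a block, and a gene was called at a Benjamini-Hochberg adjusted p under 0.05 over all genes tested. Fold changes are on the log2 scale with an SE, which for edgeR was worked back from the fold change and its test statistic. Because a level is a share of the UMIs in a cell, less RNA of one gene and more RNA of others cannot be told apart.

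Gapdh, an enzyme often used as a loading control, was set apart from the other members by library. Its level in all retained cells was 305 CPM in placebo 1, 9.78 in placebo 3, 6.18 in placebo 5, 11.6 in EPO 2, 244 in EPO 4 and 7.21 in EPO 6. A placebo and an EPO library were thus high and the other 4 low. The UMIs behind these values were 343, 2, 8, 11, 475 and 10 in the same order, so that 818 of the 849 Gapdh UMIs came from placebo 1 and EPO 4. The lower of these 2 libraries stood 21.1-fold above the highest of the other 4. Without the shared barcodes the levels were 221 CPM in placebo 1 and 257 in EPO 4.

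No other member showed this pattern. Pgam1 was the 1 other member that was higher in both than in each of the other 4, with 35.5 and 38.0 CPM in placebo 1 and EPO 4 against 16.2 to 32.4 in the other libraries. Among the genes outside the members, Pgk1, phosphoglycerate kinase, had 113 and 155 CPM in this pair against 63.6 to 73.6. Of 8339 genes with at least 100 UMIs, 27 (0.324%) were at least 5-fold higher in both libraries than in every other library and 0 were at least 5-fold lower. Gapdh was the 1 pathway gene among the 27, of which 23 encode ribosomal proteins. Gapdh lies on chromosome 6 at 125161715-125166467, minus strand (GENCODE vM21, GRCm38). Of the last 400 bases of its transcripts, at least 50% of the 50-base words also occur in 4 other annotated genes. Such a copy was present for 15 of the 27 genes (55.6%) and for 144 of 7963 genes matched to the annotation (1.81%). Among the members, Eno1 had 1 such copy and the other 7 had none. This comparison of libraries was chosen after the values were seen, and the part of the copies in it was not tested.

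**Figure D1:**
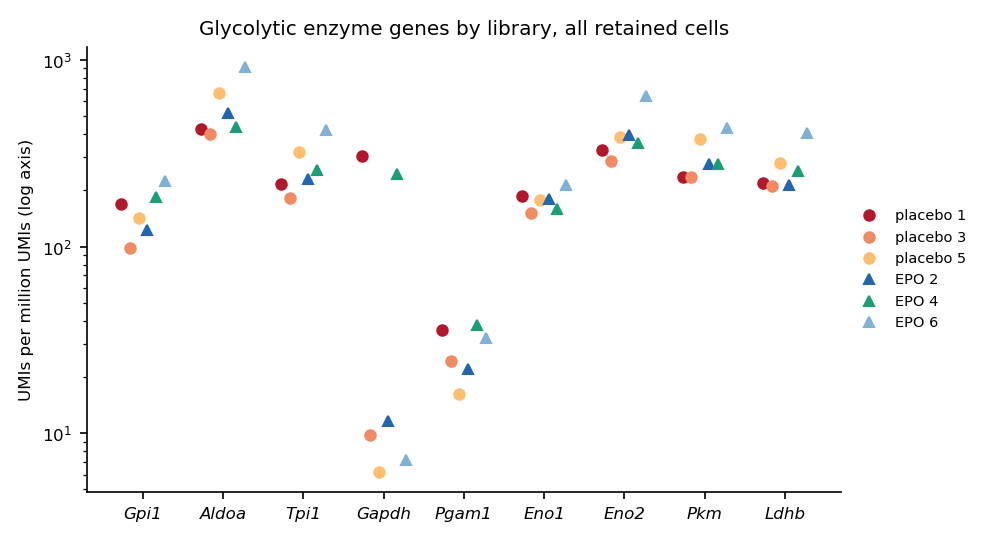
Level of each of the 9 genes in all retained cells (y axis: CPM, log axis), 1 point per library, circles for placebo and triangles for EPO. Gapdh alone falls into 2 levels, 244 to 305 CPM in placebo 1 and EPO 4 and 6.18 to 11.6 CPM in the other 4 libraries.

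Within these 2 libraries Gapdh had UMIs in enough cells to compare classes as values. In placebo 1 it was at 689 CPM in cluster 1, 478 in cluster 4, 52.6 in cluster 0 and 31.8 in cluster 3. EPO 4 gave 340, 455, 67.0 and 74.0 CPM for the same clusters. Clusters 1 and 4 were thus above clusters 0 and 3 in both. Astrocyte-like cells had 308 and 263 CPM, and oligodendrocyte-like cells 196 and 162. Without the shared barcodes the 4 clusters in the same order had 689, 394, 37.0 and 43.6 CPM in placebo 1 and 360, 475, 70.8 and 76.6 in EPO 4, astrocyte-like cells 308 and 263, and oligodendrocyte-like cells 172 and 180.

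Oligodendrocyte-like cells, which wrap axons in myelin, had less of every member that could be tested than glutamatergic-like cells. Of 4615 genes tested in 6 mice, 29.1% were called higher and 35.9% lower, and 7 of 7 tested members were lower, with a median of -1.62 against -0.12 over all genes. Eno2, the neuronal enolase, differed the most. It lay between 449 and 758 CPM in the glutamatergic-like cells of the 6 mice (median 496) and between 10.2 and 61.0 in the oligodendrocyte-like cells (median 31.9). The 2 ranges were far from overlapping. Its log2 fold change was -3.59 ± 0.26 (edgeR adjusted p = 7.4e-19). Aldoa had 545 to 1031 CPM (median 592) in glutamatergic-like and 137 to 287 (median 234) in oligodendrocyte-like cells, which is -1.29 ± 0.19 (edgeR adjusted p = 1.3e-08). Gpi1 differed the least, at -0.74 ± 0.22 (edgeR adjusted p = 0.0031), with ranges of 128.5 to 234 and 37.4 to 196 CPM that overlapped, and its call was lost without EPO 4. Eno1 (-1.82), Tpi1 (-1.76), Ldhb (-1.62) and Pkm (-1.53) lay between. Gapdh and Pgam1 did not pass the filter on low counts here.

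The comparison depended on which glutamatergic-like cells were used. Against clusters 1 and 4 alone all 7 members were lower, as were 34.2% of 4638 genes. Against clusters 0 and 3 alone 3 were lower, Eno2 (-3.54), Pkm (-0.72) and Gpi1 (-0.71), and Aldoa stood at 0.39 without a call. In that fit 38.3% of 3533 genes were lower, which is close to the members' 3 of 7. The level of 6 neuronal genes in oligodendrocyte-like cells, which free RNA in the droplets can produce, had a median over mice of 0 to 22.8% of that in glutamatergic-like cells, with Snrpn the highest. The same ratio was 6.98% for Eno2 (1.52 to 12.6%), 17.5% for Eno1, 35.5% for Aldoa and 43.0% for Gpi1. How much of the Eno2 in oligodendrocyte-like cells was free RNA was not tested.

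Of the 46 other genes of the pathway (other glycolytic enzymes and their regulators, glucose and lactate transporters, and genes of pyruvate entry into mitochondria), 18 were tested in oligodendrocyte-like cells and 14 called. Bpgm, bisphosphoglycerate mutase, was higher by 2.69 ± 0.23, the lactate transporter Slc16a1 by 2.01 ± 0.31, and Mpc1, a subunit of the mitochondrial pyruvate carrier, by 0.88. Lower were 11 genes. Among them were the phosphofructokinases Pfkm (-3.61), Pfkl (-2.96) and Pfkp (-1.84), hexokinase 1 (Hk1, -1.92), Ldha (-2.67), the neuronal glucose transporter Slc2a3 (-4.12), Dlat (-1.25), a pyruvate dehydrogenase subunit, and Bsg (-0.90), the partner protein of the lactate transporters.

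Astrocyte-like cells, which supply lactate to neurons and take up glutamate, had members called in both directions against glutamatergic-like cells. Of 1521 genes tested in 6 mice, 24.3% were called higher and 34% lower, and of 7 tested members 2 were higher and 1 lower, with a median of -0.20. The members' count of higher calls is close to the share over all genes, and that of lower calls is under it. Ldhb had 203 to 425 CPM (median 254) in glutamatergic-like and 480.5 to 1045 (median 673) in astrocyte-like cells. All 6 astrocyte-like values lay above all 6 glutamatergic-like ones, and the log2 fold change was 1.89 ± 0.24 (edgeR adjusted p = 6.9e-09). Eno1 had 189 to 225.5 CPM in glutamatergic-like and 218 to 396 in astrocyte-like cells, with an overlap between the ranges and a log2 fold change of 0.91 ± 0.27 (edgeR adjusted p = 0.0031). That call was lost with total UMIs as the scale (0.38), without the filter on low counts (0.01) and without placebo 3. Eno2 had 0 UMIs in the astrocyte-like cells of 3 mice and 161 CPM in those of placebo 1, the highest of the 6, and was lower by -3.04 ± 0.44 (edgeR adjusted p = 7.1e-08). Aldoa (-0.20 ± 0.25), Pkm (-0.38 ± 0.29), Tpi1 (-0.22 ± 0.28) and Gpi1 (0.23 ± 0.34) were not called. Without the shared barcodes Aldoa stood at 0.05, also not called. With total UMIs, under which the median of all genes moved from -0.17 to -0.69, Aldoa (-0.72), Pkm (-0.91) and Tpi1 (-0.75) were called lower. Ldhb (1.37) and Eno2 (-3.57) kept their calls. Gapdh and Pgam1 did not pass the filter on low counts.

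The 6 neuronal genes had a median ratio of 0 to 7.68% in astrocyte-like cells, against 1.19% for Eno2, 122% for Eno1 and 263% for Ldhb. Against glutamatergic-like clusters 0 and 3 alone, 5 members were tested. Aldoa (1.51), Eno1 (2.33) and Ldhb (3.52) were all higher and Eno2 lower (-2.97). In that fit 32.8% of 887 genes were called higher and 42.8% lower. Of the other pathway genes 7 were tested against all glutamatergic-like cells. Aldoc (6.99 ± 0.32) and Bsg (1.41 ± 0.26) were higher, and Ldha (-1.39 ± 0.44) was lower.

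GABAergic-like cells, the inhibitory interneurons, could be compared in 3 mice (8 to 15 cells each). Of 7725 genes, 4.25% were called higher and 4.93% lower, and 1 of 9 members was called. This was Eno1, with 89.0, 78.3 and 101 CPM in placebo 5, EPO 4 and EPO 6 against 196, 189 and 225.5 in the glutamatergic-like cells of the same mice (-1.13 ± 0.38, edgeR adjusted p = 0.048). The call was lost when any 1 of the 3 mice was left out, and with DESeq2 or limma. The other members, Pgam1 (-1.26), Aldoa (-0.73), Pkm (-0.44), Gapdh (-0.35), Gpi1 (-0.35), Tpi1 (-0.28) and Ldhb (-0.19), were not called. Against clusters 0 and 3 alone 3 of 7 tested members were higher instead, as were 11.5% of 3387 genes. Eno2 had 287, 391 and 428 CPM in the 3 mice, and its difference of -0.48 ± 0.28 was not called. Ldha was the 1 called gene of 21 other pathway genes (-1.37 ± 0.41).

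In OPC-like cells, the dividing precursors of oligodendrocytes, 6 of 9 members were called lower in 3 mice (7 to 13 cells each) and 0 higher, with 6.71% of 6424 genes higher and 15.8% lower. The members' median was -2.02, against -0.45 over all genes. Eno2 had 132, 0 and 31.3 CPM in placebo 1, EPO 4 and EPO 6 (-4.11 ± 0.62), Ldhb 87.8, 0 and 62.5 (-3.31 ± 0.66), and Aldoa 87.8, 23.6 and 281 (-3.0 ± 0.50). These levels rest on 3, 0 and 1 UMIs of Eno2, 2, 0 and 2 of Ldhb, and 2, 1 and 9 of Aldoa. Tpi1 (-2.21 ± 0.54) and Pkm (-1.31 ± 0.47) were also lower. Gapdh stood at -2.02 ± 0.65. The calls of Pkm and Gapdh were lost without the shared barcodes (edgeR adjusted p = 0.082 for Gapdh), with total UMIs, and without placebo 1 or EPO 4, that of Pkm also without EPO 6. Eno1 had 219, 212 and 219 CPM in the same mice, from 5, 9 and 7 UMIs, and glutamatergic-like cells had 189 to 225.5. So few UMIs cannot show whether its level was even over the mice. Its difference of -0.35 ± 0.48 was not called. Neither were Pgam1 (-0.57) and Gpi1 (-1.07).

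Of 19 other pathway genes in OPC-like cells 6 were called lower and 1 higher. The higher gene was Pdk1, a kinase that inhibits pyruvate dehydrogenase (1.86 ± 0.65). Ldha (3 UMIs in OPC-like cells), Hk1 (1 UMI), Pdha1 (-2.30) and Mpc2 (-1.55) were lower. Pfkl and Slc2a3 had 0 UMIs in the OPC-like cells. Counted against a floor of 3 UMIs over the class, Pfkl was at least 3.69-fold and Slc2a3 at least 1.83-fold lower than in glutamatergic-like cells.

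Endothelial-like cells, the lining of blood vessels, had 7 of 7 tested members lower in 5 mice, with 15.7% of 6110 genes called higher and 33.1% lower and a median of -1.88 against -0.57 over all genes. Eno2 was at 0 in 3 of the 5 mice and at 39.8 and 39.1 CPM in placebo 1 and EPO 2 (-4.82 ± 0.49, edgeR adjusted p = 2.1e-21). These 2 levels rest on 2 UMIs each. Ldhb ran from 0 to 59.1 CPM, on 4 UMIs in all (-3.87 ± 0.54). Aldoa (-2.13), Tpi1 (-1.88), Gpi1 (-1.25), Pkm (-0.89) and Eno1 (-0.88) followed, and Gapdh and Pgam1 did not pass the filter. Without EPO 4 the calls of Gpi1, Pkm and Eno1 were lost, and that of Eno1 also when any other single mouse was left out and without the shared barcodes (-1.08, edgeR adjusted p = 0.056). Higher were Slc2a1, the glucose transporter of the blood-brain barrier (7.67 ± 0.33), the hypoxia-regulated transcription factor gene Epas1 (7.41 ± 0.34), Slc16a1 (4.66 ± 0.31) and Bsg (4.59 ± 0.33). Of the 21 other pathway genes 4 were higher and 11 lower, among the latter Mpc2 (-1.58), Pfkp (-1.88), Pgk1 (-2.09), Hk1 (-1.68), Pfkl (-1.89) and Pdhb (-1.85).

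Microglia-like cells reached 5 cells in 2 mice, placebo 1 and EPO 2, under the 3 mice set here as the least for a comparison of classes, and were not tested. Ldhb had 283 and 434 CPM there, Aldoa 142 and 347, and Pkm 106 and 260. Eno2 had 142 and 0 CPM. The 10 mural-like cells held 0 Eno2 UMIs.

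**Figure D2:**
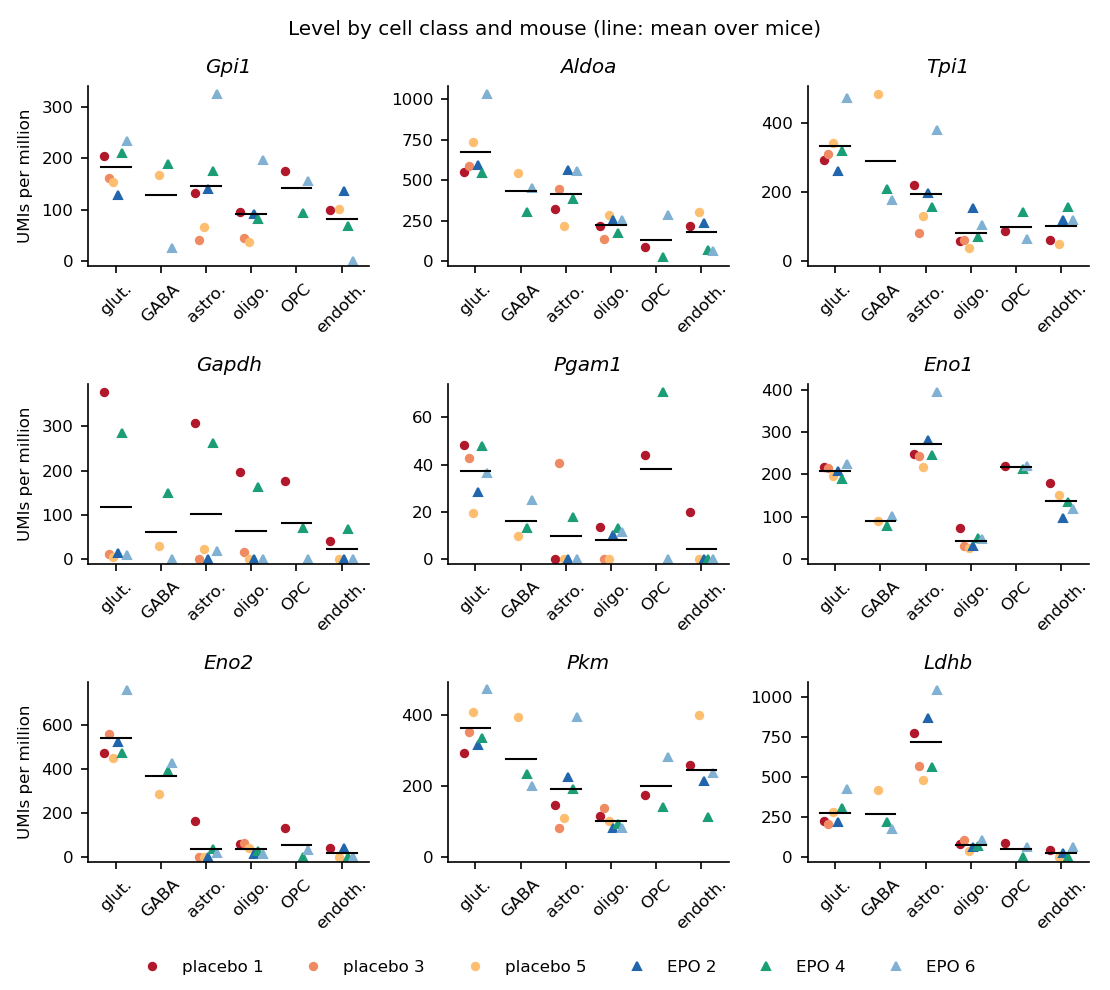
Level of each gene in 6 cell classes (y axis: CPM), 1 point per mouse with at least 5 cells of the class, circles for placebo and triangles for EPO; the line is the mean over mice. Eno2 is high in both neuron classes and at 0 to 161 CPM in the other 4, Ldhb is highest in astrocyte-like cells, and the high Gapdh points come from placebo 1 and EPO 4 (GABAergic-like cells have no placebo 1 point).

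The choice between the 2 genes of a step was given as a share of UMIs per mouse, wherever a mouse had at least 10 UMIs of the pair. With 3'-end counts a share is one of captured molecules, and a difference in capture between the 2 ends was not tested. Eno1 and Eno2, both members, lie on different chromosomes (Eno1 at chromosome 4, 150236721-150248879, plus strand; Eno2 at chromosome 6, 124760053-124769673, minus strand; GENCODE vM21, GRCm38). The 250 bases before their starts are shown because these 2 members were called in opposite directions in astrocyte-like cells. They are RefSeq sequence of GRCm38.p6, 5' to 3' on the gene's strand, with matches to ACGTG or GCGTG on either strand, the core letters of a hypoxia response element, in capitals.
Eno1, chr4:150236458-150236707, plus strand: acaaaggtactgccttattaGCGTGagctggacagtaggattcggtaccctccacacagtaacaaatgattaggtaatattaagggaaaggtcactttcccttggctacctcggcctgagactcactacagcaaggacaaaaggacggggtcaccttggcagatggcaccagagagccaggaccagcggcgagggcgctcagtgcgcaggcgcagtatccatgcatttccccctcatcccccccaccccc
Eno2, chr6:124769674-124769923, minus strand: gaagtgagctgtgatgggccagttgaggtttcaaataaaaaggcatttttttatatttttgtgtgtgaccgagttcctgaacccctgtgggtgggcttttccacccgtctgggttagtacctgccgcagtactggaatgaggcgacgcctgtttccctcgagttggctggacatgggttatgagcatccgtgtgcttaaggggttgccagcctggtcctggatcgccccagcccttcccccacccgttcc
Eno1 had 1 match and Eno2 had 0. Over the 9 members, all matched to the promoter table, 4 had at least 1 match (Gapdh 2, Pgam1 3, Eno1 and Ldhb 1 each). At least 1 match was present for 38.6% of 27025 genes. A match is a string of letters, not a bound site.

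Eno2 made up 68.3 to 77.1% of enolase UMIs in the glutamatergic-like cells of the 6 mice (71.6% ± 3.03, SD) and 76.3 to 83.3% in GABAergic-like cells (80.2% ± 3.57, SD, n = 3). In astrocyte-like cells it was 0, 0, 4.35, 12.5 and 39.3% in placebo 5, EPO 2, EPO 6, EPO 4 and placebo 1. Each of these 5 mice had a lower share in astrocyte-like than in glutamatergic-like cells, with a mean difference of -60.3 points (SD 18.4; exact sign-flip test over mice, two-sided, p = 0.0625, the smallest 5 mice allow; adjusted p = 0.0938 over 6 class comparisons). Oligodendrocyte-like cells had enough UMIs in 2 mice, with 44.8% in placebo 1 and 34.8% in EPO 4. Pooled over mice the share was 41.7% of 72 UMIs (95% exact binomial interval 30.1 to 53.9%, counting error only).

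Aldolase divided more sharply. Aldoc held 90.6 to 93.7% of aldolase UMIs in astrocyte-like cells (92.4% ± 1.22, SD, n = 6) and 1.80 to 17.7% in glutamatergic-like cells (8.99% ± 5.52, SD, n = 6). The difference of 83.4 points had the same sign in 6 of 6 mice (exact sign-flip test, two-sided, p = 0.03125, the smallest 6 mice allow; adjusted p = 0.0625). In oligodendrocyte-like cells the Aldoc share was 21.0% ± 11.4 (SD, n = 6), 11.96 points above glutamatergic-like cells in 6 of 6 mice (adjusted p = 0.0625, same exact test). It was 7.95 points in 5 of 6 mice without the shared barcodes (exact p = 0.0938), 1.72 points in 3 of 6 mice as a mean over cells (exact p = 0.625) and -7.51 points against glutamatergic-like clusters 0 and 3 alone. Aldoc itself had a mean over mice of 57.6 CPM in oligodendrocyte-like, 67.5 in glutamatergic-like and 5260 in astrocyte-like cells. The 9 astrocyte markers summed to medians of 154, 367 and 23856 CPM in the same order. Aldoa had means of 220 CPM in oligodendrocyte-like and 674 in glutamatergic-like cells. The part of free astrocyte RNA in these Aldoc shares was not tested.

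Lactate dehydrogenase was mostly Ldhb in astrocyte-like cells, where Ldha made up 0 to 8.82% of the pair (5.81% ± 3.02, SD, n = 6), against 34.1 to 45.9% in glutamatergic-like cells (40.4% ± 4.76, SD, n = 6). The groups did not overlap, and the difference of -34.6 points held in 6 of 6 mice (exact sign-flip test, p = 0.03125, adjusted p = 0.0625). GABAergic-like cells had 17.6 and 25.0% in 2 mice. In endothelial-like cells Ldha prevailed, with 86.7% in placebo 1 and 100% in EPO 4, and 90.2% of 41 UMIs pooled (95% exact binomial interval 76.9 to 97.3%). None of the 6 class comparisons of shares passed an adjusted p of 0.05, and in each of them p was the smallest that its number of mice allows.

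**Figure D3:**
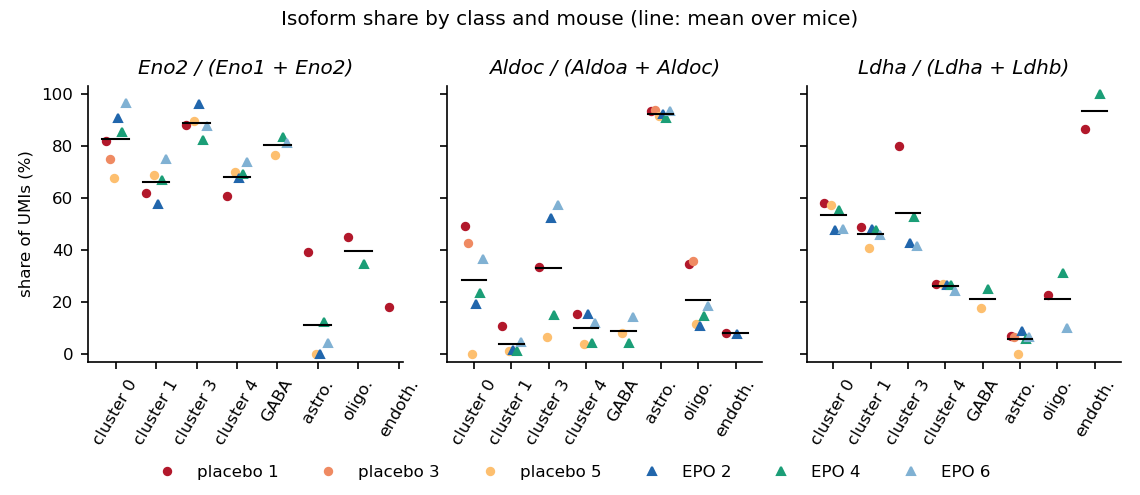
Share of Eno2, Aldoc and Ldha in the UMIs of their pair (y axis: percent), 1 point per mouse with at least 5 cells and 10 UMIs, circles for placebo and triangles for EPO; the line is the mean over mice. Aldoc holds 90.6 to 93.7% in astrocyte-like cells, and Ldha splits cluster 4 (24.4 to 27.2%) from cluster 1 (40.9 to 48.7%).

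Within the glutamatergic-like cells, the members were not spread evenly over the 4 clusters. Summed over the 9 genes, the level was 1242 ± 225 CPM (SD, n = 6) in cluster 0, 3384 ± 465 (n = 5) in cluster 1, 1164 ± 385 (n = 5) in cluster 3 and 4040 ± 609 (n = 5) in cluster 4. Clusters 0 and 3 had fewer UMIs per cell (medians 3736.5 and 3772) and more mt- UMIs (14.5 and 21.6%) than clusters 1 and 4 (10127 and 8478 UMIs, 4.06 and 5.16%). Cluster 0 was led by Cpne7 and the long noncoding RNAs Meg3 and Snhg11, and cluster 1 by Hpca, Spink8 and Nrgn. The part of depth and mt- share in the levels was not tested apart from the comparisons given here.

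Cluster 0 was compared with cluster 1 after these values were seen, in 5 mice. Of 4474 genes, 29.1% were called higher and 31.6% lower, with a median of -0.01, and 5 of 7 members were lower. Aldoa had 139, 265, 124.5, 96.8 and 215 CPM in cluster 0 of placebo 1, placebo 5, EPO 2, EPO 4 and EPO 6, and 906, 827, 1141, 681 and 1123 in cluster 1. No mouse came near an overlap, and the log2 fold change was -2.13 ± 0.15 (edgeR adjusted p = 1.7e-18). Tpi1 (-2.00 ± 0.17), Eno1 (-1.65 ± 0.23), Ldhb (-1.53 ± 0.19) and Pkm (-0.82 ± 0.16) were also lower. Eno2 was not called, at -0.02 ± 0.13 (edgeR adjusted p = 0.88), with 310 to 651 CPM in cluster 0 and 445 to 749 in cluster 1. Gpi1, at -0.12 ± 0.18 (edgeR adjusted p = 0.58), was not called either, and Gapdh and Pgam1 did not pass the filter. Markers of other cell types moved with these clusters. The 9 astrocyte markers summed to 187 to 560 CPM (median 379) in cluster 0 and 130 to 325 (median 157) in cluster 1, and the 8 oligodendrocyte markers to 452 to 4278 (median 1828) and 214 to 2460 (median 466.5), all 17 with UMIs in both. Their part in the differences was not tested. These fold changes are relative to edgeR's scaling. With total UMIs as the scale the median of all genes moved to -0.40, and Eno2 (-0.42) and Gpi1 (-0.51), both near that median, were then called lower as well.

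The other pathway genes tested here numbered 17, of which 8 were lower and 2 higher. Lower were Pgk1 (-2.41), Mpc2 (-1.70), Dld (-1.09), Ldha (-1.08), Dlat (-1.0), Bsg (-0.96), Pdha1 (-0.88) and Pdhb (-0.55). Pfkfb2, whose product makes the activator of phosphofructokinase, was higher by 1.28, and Slc2a3 by 1.09. Hk1 (-0.14), the first enzyme of the pathway, and the phosphofructokinases were not called.

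Cluster 3, compared with the CA1-pyramidal-like cells of 5 mice, had 18.1% of 4984 genes higher and 19.6% lower. Aldoa (-1.49), Tpi1 (-1.49), Eno1 (-1.45), Ldhb (-1.20) and Pkm (-0.95) were lower, Eno2 (0.14) and Gpi1 (0.08) were not called, and Gapdh and Pgam1 did not pass the filter. Of 19 other pathway genes, Mpc2 (-1.72), Pgk1 (-1.81), Pdha1 (-0.91), Ldha (-0.78), Pdhb (-1.09) and Dld (-0.93) were lower, and Aldoc (1.41), Pfkp (0.83) and Mpc1 (0.84) higher. Against CA1-pyramidal-like cluster 0 alone, which is closer to it in depth than cluster 1, 0 of 7 members were called, and 13.1% of 2671 genes in either direction.

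Cluster 4 went the other way. Of 6510 genes tested in 5 mice, 12.6% were higher and 13.9% lower than in the CA1-pyramidal-like cells, and 5 of 9 members were higher. Ldhb had 495, 401, 570, 633 and 755 CPM in cluster 4 of placebo 1, placebo 5, EPO 2, EPO 4 and EPO 6, above the 248.5 to 313 of cluster 1 in every mouse. Its log2 fold change was 1.30 ± 0.15 (edgeR adjusted p = 1.5e-10). Pkm (0.68), Tpi1 (0.62), Aldoa (0.48) and Eno1 (0.44) were also higher, and Gapdh (0.48), Eno2 (0.23), Gpi1 (0.07) and Pgam1 (0.01) were not called. With total UMIs Gapdh (0.62) and Eno2 (0.35) were called too, and without EPO 4 or EPO 6 the call of Eno1 was lost. Against cluster 1 alone Ldhb (1.00) and Pkm (0.48) were still called and the other 7 were not, and 9.44% of 5744 genes were higher.

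Of 21 other pathway genes in cluster 4, 8 were higher and 3 lower. The higher ones included Aldoc (1.25), Pgk1 (1.05), Mpc1 (0.79), Mpc2 (0.78), Dlat (0.66), Pfkp (0.65), Pfkm (0.62) and Dld (0.50). Pfkl (-0.76) and Hif1a (-0.84), the oxygen-regulated transcription factor gene, were among the lower. The share of Ldha was 26.3% ± 1.12 (SD, n = 5) in cluster 4 and 46.2% ± 3.14 (n = 5) in cluster 1, with no overlap between the mice. This pair of shares was read after the clusters were seen and was not tested.

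The glutamatergic-like cells of each mouse were also divided at their median mt- share. The upper group (308 cells) had a median of 17.8% mt- UMIs and 3789 UMIs per cell, and 10.4% of its cells were in clusters 1 and 4. The lower group (309 cells) had 4.93%, 8356 UMIs and 75.4%. With the mt- genes left out of the counts, 25.4% of 5533 genes were called higher in the upper group and 26.6% lower, and 6 of 8 tested members were lower. These were Tpi1 (-1.71 ± 0.19), Aldoa (-1.65 ± 0.18), Ldhb (-1.58 ± 0.20), Eno1 (-1.41 ± 0.20), Pgam1 (-1.33 ± 0.38) and Pkm (-1.02 ± 0.18). Eno2 (-0.11 ± 0.16) and Gpi1 (-0.11 ± 0.18) were not called, and Gapdh did not pass the filter. Without the shared barcodes Pgam1 did not pass it either. Other pathway genes gave 8 lower, led by Mpc2 (-1.52), Pgk1 (-2.19), Dld (-1.07) and Pdha1 (-0.93), and 3 higher, among them Pfkfb2 (1.30) and Slc2a3 (0.89), of 19 tested.

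Shares of UMIs were also compared between the upper and lower groups, after the fold changes above were seen. Because the calls were known, these shares are not a separate test of whether members differed. Eno2 made up 83.1% of enolase UMIs in the upper and 69.1% in the lower group, a difference of 14.0 points (SD 8.73) with the same sign in 6 of 6 mice (exact sign-flip test, two-sided, p = 0.03125, the smallest possible; adjusted p = 0.0625 over 4 pairs). Gpi1 as a share of Gpi1 and Tpi1 was 59.6% in the upper and 32.1% in the lower group, 27.5 points (SD 6.76) in 5 of 5 mice (exact p = 0.0625, the smallest possible, adjusted p = 0.0625). Gpi1 and Tpi1 act at different steps, and this pair joins a member not called with 1 called lower. Its direction was thus known in advance. The shares of Aldoc (27.3 against 7.08%) and Ldha (50.1 against 37.9%) were also greater in the upper group of every mouse tested, with adjusted p = 0.0625 in the same exact test. Markers of other cell types moved with the groups. The 9 astrocyte markers, all with UMIs, summed to 168 to 738 CPM in the upper group (median 480) and 171 to 466 in the lower (median 337). The 8 oligodendrocyte markers, all with UMIs, summed to 377 to 4487 CPM (median 2002) and 212 to 2984 (median 912). Their part in the shares was not tested.

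By range of mt- share, Aldoa had 1068 ± 226 CPM of the non-mt- UMIs (SD, n = 4 mice) at 0 to 5%, 713 ± 313 (n = 5) at 5 to 10%, 288 ± 93.9 (n = 6) at 10 to 20% and 184 ± 69.4 (n = 5) at 20 to 40%. Tpi1 went from 487 to 77.3 and Ldhb from 462 to 77.7 over the same ranges. Eno2 had 666 ± 111, 534 ± 99.4, 523.5 ± 233 and 480 ± 54.6, and Gpi1 222 ± 51.2, 213.5 ± 40.6, 166.5 ± 65.1 and 157 ± 47.8. The first 3 genes thus spanned a wider range of levels than Eno2 and Gpi1.

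**Figure D4:**
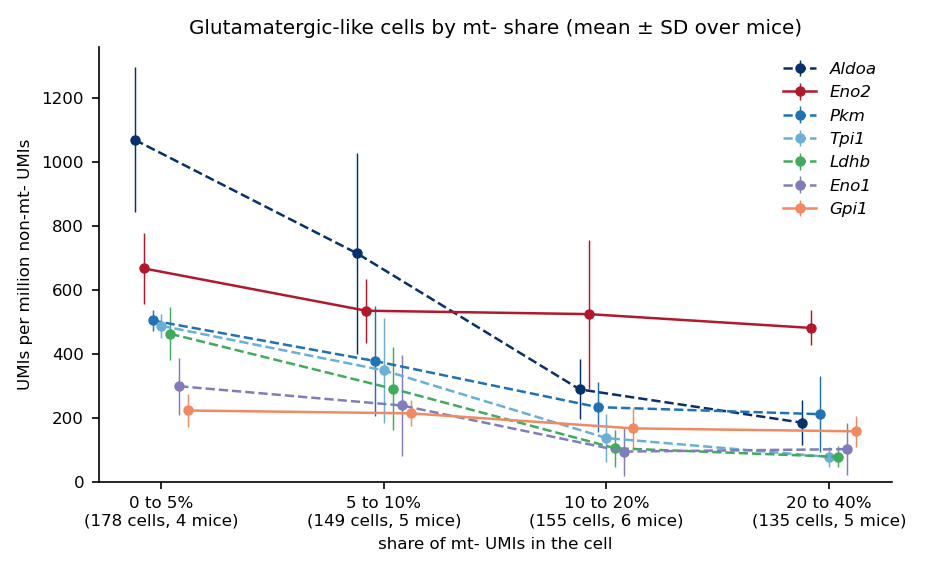
Mean level ± SD over mice (y axis: CPM of the UMIs that are not from mt- genes) of 7 members in glutamatergic-like cells by the cell's share of mt- UMIs (x axis, 4 ranges with their numbers of cells and mice). Aldoa goes from 1068 to 184, and Eno2 from 666 to 480.

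Across single glutamatergic-like cells of 1 mouse, the summed level of the 9 members and the mt- share had Spearman's rho of -0.70 to -0.43 over the 6 mice (16 to 165 cells each), and the level and the UMIs of the cell 0.39 to 0.70. These are descriptions: both measures come from the same cell and depth and mt- share themselves had a rho of -0.66 to -0.39. For Eno2 alone the rho with mt- share was -0.24 to -0.04. For the 9 members it was -0.30 to -0.01 inside cluster 0 and -0.58 to 0.05 inside cluster 1, in 5 mice each, negative in 5 and in 4 of them. When the groups by mt- share were drawn inside a cluster, with at least 2 cells a mouse and group, 0 of 4 tested members were called in cluster 0, with 4.15% of 1397 genes called in either direction, and 0 of 8 in cluster 1, with 0.422% of 4267. Dividing the cells at the median depth instead gave 21.2% of 4481 genes higher and 19.7% lower in the deeper cells. Ldhb (1.45), Eno1 (1.36), Tpi1 (1.28), Aldoa (1.25) and Pkm (0.72) were higher there, and Gpi1 (0.34, called at 0.52 with total UMIs) and Eno2 (0.03) were not called. Gapdh and Pgam1 did not pass the filter.

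EPO was compared with placebo over mice, 3 against 3, to ask whether the pathway differed 6 hours after the injection. In the sum of all retained cells, 0 of 10043 genes (0%) were called by edgeR and 0 by limma, DESeq2 called 1, which was no member, and 127 had an unadjusted edgeR p under 0.05, none of them a member. Eno2 had 328, 288.5 and 385 CPM in the placebo mice and 397.5, 359 and 643 in the EPO mice, so that the groups overlapped, and its log2 fold change was 0.40 ± 0.24. Aldoa had 426.5, 401 and 664 against 517, 439 and 913 CPM (0.25 ± 0.29). The 9 genes together had 2029 ± 392 CPM (SD, n = 3) with placebo and 2493 ± 708 with EPO. Levels overlapped between the groups for 9 of 9 members, while 6.25% of 11451 genes with at least 30 UMIs did not overlap. The other 7 members stood at -0.43 (Gapdh, 0.04 without the shared barcodes), 0.03 (Eno1), 0.14 (Pkm), 0.22 (Ldhb), 0.24 (Pgam1) and 0.27 (Tpi1 and Gpi1), and the median over all 9 was 0.24 against -0.01 over all genes. That median was 0.05 without EPO 6, 0.14 without placebo 3 and 0.38 without EPO 2, and 0.14 with the D code as a term. EPO 6, which had the lowest mt- share, was the highest library for 7 of the 9 members.

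In glutamatergic-like cells 0 of 8499 genes (0%) were called, again by each of the 3 tools, and 145 had an unadjusted edgeR p under 0.05. Members stood at -0.59 (Gapdh), -0.06 (Eno1), 0.04 (Pkm), 0.07 (Gpi1), 0.10 (Tpi1), 0.14 (Aldoa and Pgam1), 0.20 (Eno2) and 0.32 (Ldhb), with a median of 0.10. The median was -0.03, with 6 of 9 members negative, without EPO 6, 0.23 without placebo 1 and 0.24 without EPO 2. Without the shared barcodes it was 0.23 with 9 of 9 positive, Gapdh at 0.09 among them. Ldhb had 226, 203 and 282 CPM with placebo and 216, 303.5 and 425 with EPO (0.32 ± 0.22). Eno1 was the most even, at 219, 214 and 196 against 209, 189 and 225.5 (-0.06 ± 0.21). All 9 overlapped between the groups, and 6.82% of 10016 genes did not. Gapdh had an SE of 1.09, since 1 mouse of each group carried nearly all its UMIs. With the pair of libraries as a term in the model its fold change was -0.11 ± 0.35. The share of glutamatergic-like cells in clusters 1 and 4, where the members were higher, was 35.6, 31.3 and 63.2% with placebo and 19.6, 41.2 and 50% with EPO. Within clusters 1 and 4 the members' median was 0.20, with 0 of 9 members and 0 of 7626 genes called. Within clusters 0 and 3 it was -0.31, with 6 of 7 tested members negative and 0 called, and 1 of 4009 genes called. There 2 of the 7 members and 89 of the 4009 genes had an unadjusted edgeR p under 0.05.

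Oligodendrocyte-like cells gave 0 of 1544 genes (0%) and 28 at an unadjusted edgeR p under 0.05. Aldoa was the 1 member tested (-0.00 ± 0.30). As levels, Eno2 (59.3, 61.0 and 37.4 CPM with placebo; 10.2, 26.4 and 11.5 with EPO), Pkm and Tpi1 did not overlap between the groups, 3 of 9 members, as did not 7.52% of 4094 genes. Eno2 and Pkm were lower and Tpi1 higher with EPO, and the Eno2 values rest on 30 UMIs. Pgam1, with 9 UMIs, was under the 30 UMIs set for the genes compared. In astrocyte-like cells Pkm (147, 81.2 and 109 against 224, 193 and 396 CPM) and Gpi1 did not overlap, 2 of 9 members against 8.45% of 1539 genes. Those genes had at least 30 UMIs, which Eno2 (14 UMIs) and Pgam1 (2) did not reach. Pkm had 10, 2 and 5 UMIs with placebo and 8, 11 and 22 with EPO, and Gpi1 9, 1 and 3 against 5, 10 and 18. The difference between classes was tested as well, as the class contrast in EPO mice minus that in placebo mice. None of 4615 genes (0%) was called for oligodendrocyte-like and none of 1521 (0%) for astrocyte-like cells, with Eno2 at -1.49 ± 0.65 (edgeR adjusted p = 0.98) in the former.

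Other pathway genes gave no call for EPO, of 27 tested in all cells (-0.73 to 0.33), 25 in glutamatergic-like and 3 in oligodendrocyte-like cells. Of the shares in glutamatergic-like cells, that of Ldha was 45.9, 45.7 and 40.1% with placebo and 39.8, 36.6 and 34.1% with EPO. The groups did not overlap and differed by -7.08 points, with an exact permutation p of 0.1, the smallest that 3 against 3 allow (two-sided, adjusted p = 0.3 over 3 pairs). As a mean over cells the difference was -2.57 points (exact permutation p = 1). In cluster 1 the Ldha share was 48.7 and 40.9% in placebo 1 and 5, and 48.0, 47.6 and 45.6% with EPO. In cluster 4 it was 26.9 and 27.2% against 26.6, 26.55 and 24.4%. Cluster 4 held 78 of 294, 0 of 35 and 81 of 489 UMIs of the pair with placebo. With EPO it held 94 of 254, 354 of 640 and 402 of 741. The part of this mix of clusters in the difference was not tested. The Eno2 share was 3.27 points higher with EPO (exact permutation p = 0.3), 1.37 points without EPO 6 and 11.8 points in clusters 0 and 3 (exact permutation p = 0.1), and the Aldoc share 1.55 points lower (exact permutation p = 1).

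**Figure D5:**
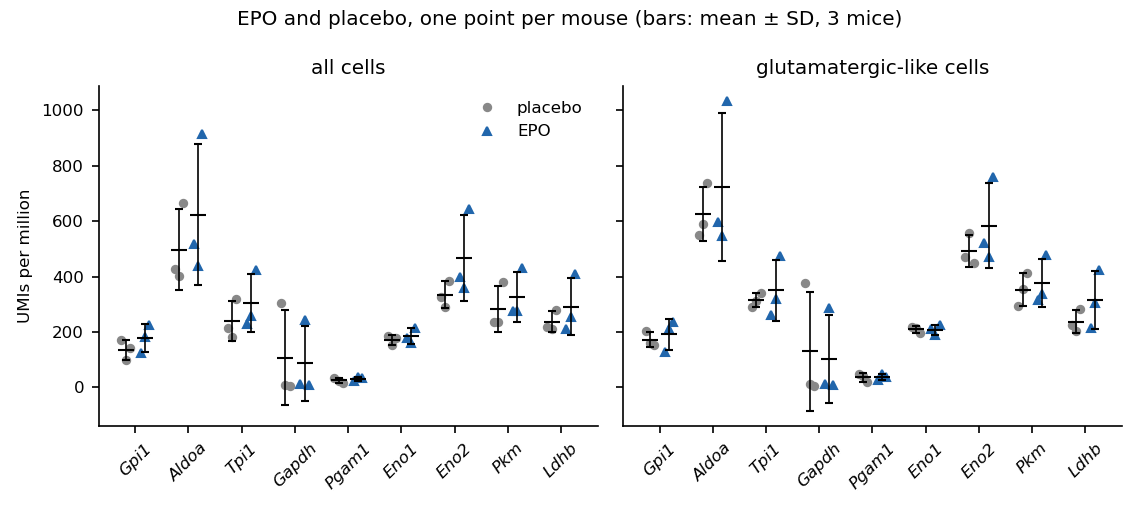
Level of the 9 genes in all retained cells and in glutamatergic-like cells (y axis: CPM), 1 point per mouse, circles for placebo and triangles for EPO, with the mean ± SD of 3 mice. The groups overlap for every gene, and the highest EPO point is EPO 6 for 7 of the 9 genes in all cells.

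Over 31 sums of cells by class and mouse, the genes outside the pathway lists whose level ran most like that of the 9 members together were the tubulin gene Tubb2a (Spearman's rho 0.87), Celf2 (0.86), Chst1 (0.86), Gpm6a (0.84) and the tubulin gene Tuba4a (0.83), of 5883 genes compared. Among the members, Aldoa (0.76) and Tpi1 (0.72) ran most like the sum of the other 8, and Gapdh the least (0.14). The 31 sums share mice and libraries.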

How the data were processed

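The authors deposited UMI counts per gene and barcode, 1 table over the 6 libraries, made from Drop-seq reads. Their processing notes name bcl2fastq 2.15, STAR 2.4.0 and the build mm10, and the counting of antisense reads is not given in the sources used here. Blank cells of the table were read as 0. Barcodes with more than 1000 and at most 8000 detected genes and at most 40% mt- UMIs were retained, 43 to 271 per mouse, with 204479 to 1948490 UMIs. Cells were clustered with Seurat 5.3.0 (R 4.3.3) without the glycolysis genes among the variable features and named from markers. Doublets were marked with Scrublet (scanpy 1.11.5) and removed in an alternative.

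UMI counts were summed per mouse and class (at least 5 cells) and tested with edgeR 4.0.16 (TMM scaling, filter on low counts, quasi-likelihood test, Benjamini-Hochberg adjustment at 5%), with mouse as a block between classes. The fits were first tested on simulated data. Shares of gene pairs were compared with exact tests (scipy 1.17.1). EPO and placebo mice carry different numbers, so the main EPO fits had no block. Classes were compared where at least 3 mice qualified. Alternatives were other scaling (edgeR's relative log expression, total UMIs), no filter, DESeq2 1.42.0, limma 3.58.1, each mouse left out and the D code as a term. Further ones were mt- genes left out, cells up to 20% mt- UMIs, other cluster resolutions, glycolysis genes kept in the clustering and doublets removed. The shared barcodes, the library pair and subsets of clusters were added after the data were seen.

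The members and gene lists were chosen with earlier results of these data known. All 9 members are named in every main comparison across genes but those below, those that did not pass the filter as such. The EPO comparison of oligodendrocyte-like cells and that of the difference between classes name only some members. Of the other pathway genes, up to 10 past the threshold with the smallest p are named. Counting intervals and floors cover counting error only.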

Additional observations from a re-analysis of the deposited data

Results flagged for a closer look

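The barcodes left out of the comparisons (5027 barcodes, median 246 UMIs, 28.5% of all UMIs) also held transcripts of the 9 genes, whose sum was above the limit that a count of 0 allows. The summed level had a median of 1005 CPM over the 6 libraries and a range of 707 to 1487, and Eno2 made up 64.5% of enolase UMIs there. By gene, the medians of Gapdh (5.03 CPM) and Pgam1 (8.74) lay under the highest such limit of a library, 16.1 CPM. Gapdh in these barcodes stood at 210.1 CPM in placebo 1 and 76.61 CPM in EPO 4, against 0 to 5.70 in the other libraries, the same pair of libraries as in the retained cells.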

How the results depend on the processing

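Of 759 alternative values of members called in a comparison, 688 kept direction and call, 64 kept the direction only and 7 reversed. Of 717 values of members not called, 612 kept their sign, 84 changed sign without a call and 21 passed the threshold. The counts of called members that moved most in proportion are given here. Against clusters 0 and 3 only they were 3 of 7 (oligodendrocyte-like), 3 of 7 (GABAergic-like, all higher), 2 of 6 (OPC-like) and 2 of 6 (endothelial-like). In those fits 76.4, 22.9, 48.5 and 70.7% of all genes were called in either direction, in the same order. For astrocyte-like cells they were 5 with total UMIs and 6 without the filter. Of all genes, 227 were higher and 760 lower of 1521 with total UMIs, and 1143 and 2725 of 18347 without the filter. For GABAergic-like cells they were 2 with total UMIs, without the filter, at resolution 0.6 or against clusters 1 and 4, 0 with DESeq2, limma or without mt- genes, and 0 to 1 when 1 mouse was left out. Of all genes, 311 were higher and 472 lower of 7725 with total UMIs, and 296 and 485 of 17099 without the filter. At resolution 0.6 these were 305 and 471 of 6400, and against clusters 1 and 4 they were 407 and 383 of 7050. Leaving out 1 mouse gave 4 (without EPO 4) to 8 (without placebo 5) for endothelial-like cells. Of all genes, 790 were higher and 1717 lower of 6203 without EPO 4, and 975 and 1854 of 6205 without placebo 5. Cluster 3 had 0 against cluster 0 only, cluster 4 had 2 against cluster 1 only, and the comparison by mt- share had 0 within cluster 0 or cluster 1.

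Against clusters 0 and 3 only, these log2 fold changes took the opposite sign: Aldoa in oligodendrocyte-like (0.39), astrocyte-like (1.51) and GABAergic-like cells (0.96), Eno1 in GABAergic-like (0.054), OPC-like (1.45) and endothelial-like cells (0.70), Tpi1 (1.55) and Ldhb (1.55) in GABAergic-like and Pkm in endothelial-like (0.10), astrocyte-like (0.52) and GABAergic-like cells (0.48). So did Aldoa (0.30), Tpi1 (0.12) and Ldhb (0.060) in cluster 3 against cluster 0. The Aldoc share difference for oligodendrocyte-like cells became -7.51 points against clusters 0 and 3. That for EPO became 1.203 as a mean over cells, 1.42 in clusters 1 and 4 and 5.05 in clusters 0 and 3, and ran from -5.53 to 2.402 when 1 mouse was left out. The 9 members together had means of 1242 and 1164 CPM in clusters 0 and 3, against 3384 and 4040 in clusters 1 and 4. Aldoa had 179 and 193 against 936 and 997 CPM, and 220 in oligodendrocyte-like cells. Each subset also holds fewer cells. The part of the reference level or of cell number in these changes was not tested.

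Total UMIs in place of TMM scaling moved the median of all genes from -0.12 to -0.41 (oligodendrocyte-like), -0.17 to -0.69 (astrocyte-like), -0.45 to -0.06 (OPC-like) and -0.57 to -0.29 (endothelial-like). No paired analysis was possible because the mouse numbers differ between placebo and EPO and nothing ties 1 placebo mouse to 1 EPO mouse; with the D code or the library pair as a term, 0 members were called. Microglia-like cells had 5 cells in 2 mice, under the 3 mice set as the least, and their planned comparisons were not run. For EPO, 3 mice against 3 and 43 cells in placebo 3 limit what can be seen, and class comparisons in 3 mice rest on 7 to 15 cells a mouse.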
